A study of Mus musculus with 75 samples.

Results

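The messenger RNAs of 9 genes of the eIF4F cap complex and its inhibitors were followed in cultures of mouse CD4 effector T cells. The cultures were unstimulated, stimulated, stimulated with regulatory T cells (Tregs) added, or stimulated and given a short drug treatment. The genes were chosen by name: the cap-binding protein Eif4e (ENSMUSG00000028156), the RNA helicases Eif4a1 (ENSMUSG00000059796) and Eif4a2 (ENSMUSG00000022884), the scaffolds Eif4g1 (ENSMUSG00000045983) and Eif4g2 (ENSMUSG00000005610), and the helicase cofactor Eif4b (ENSMUSG00000058655). The inhibitors are the eIF4E-binding proteins Eif4ebp1 (ENSMUSG00000031490) and Eif4ebp2 (ENSMUSG00000020091), and Pdcd4 (ENSMUSG00000024975), which acts on eIF4A. They are 9 of the 53465 gene identifiers in the tables, and all 9 passed the filter on low counts in both assays, with a lowest count of 32 reads in any library.

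In cap-dependent translation, eIF4E binds the cap of a messenger RNA and eIF4G, which carries the helicase eIF4A, bridges it to the small ribosomal subunit, while eIF4B stimulates the helicase. The eIF4E-binding proteins occupy the site on eIF4E that eIF4G needs and let go of it when the kinase mTORC1 phosphorylates them. Pdcd4 holds eIF4A away from the complex and is degraded after phosphorylation by S6 kinase, so much of the control of this complex in activated T cells acts on proteins, which were not measured here. Eif4g2 encodes a relative of eIF4G that does not bind eIF4E.

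The samples were CD4+CD25- effector T cells from spleen and lymph nodes. In the RiboTag assay they came from 5 mice with a parent of each of 2 strains. The strain B6N.129-Rpl22tm1.1Psam/J carries an Rpl22 allele that makes a tagged ribosomal protein once Cre has acted on it. The other strain, B6.Cg-Tg(Cd4-cre)1Cwi/BfluJ, makes Cre under Cd4 control. RNA bound to tagged ribosomes (IP) and the RNA of the culture before precipitation (Input) were sequenced from cells with beads coated with anti-CD3/CD28 plus Tregs, from cells with beads alone (stimulated) and from cells rested in IL7, 5 libraries each. In the SPEED assay, cells of 4 mice labelled with the genotype B6.SJL-PtprcaPepcb/BoyJ were lysed and fractionated on sucrose into polysomal (Pol) and subpolysomal (SubPol) RNA, next to Input. The design text of the series names the strain differently, and which applies is not known here. The SPEED cultures had beads plus HHT for the last 10 min, beads plus Tregs, beads alone, or no treatment, with 4 libraries per fraction. The exception was HHT, with 3 of Pol, 3 of SubPol and, by the labels, 2 mice in Input. The Tregs were CD4+YFP+ cells of Foxp3YFP-Cre mice, for which the labels name no tagged ribosome. The sources used here give no ages, no Treg number or culture time per sample, no word on whether Tregs were taken out before lysis, and no full name for HHT.

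Libraries held 1658481 to 2824875 counts in RiboTag and 1566501 to 4621104 in SPEED, and levels are given in CPM, each library's counts scaled to a common library size by TMM. CPM is not per transcript length, so levels are compared between samples and not between genes. A higher CPM in a bulk culture may come from more cells that make the RNA or from more RNA per cell, and these cannot be told apart. The labelled cell type was not checked against marker genes, because 0 of 25 listed marker symbols could be matched to the gene identifiers of the tables. The 45 other initiation genes listed for comparison had 0 matches and were not analysed here.

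The 9 genes lie apart from each other in the genome, apart from Eif4g1 (chr16:20672720-20692883) and Eif4a2 (chr16:23107468-23114132), which share chromosome 16 of GRCm38.p6. Eif4e lies at chr3:138526191-138559696, Eif4a1 at chr11:69666936-69672423, Eif4g2 at chr7:111067985-111083030 and Eif4b at chr15:102073773-102097173. Of the inhibitors, Eif4ebp1 lies at chr8:27260327-27275656, Eif4ebp2 at chr10:61428491-61452790 and Pdcd4 at chr19:53892231-53937592. All are annotated as protein-coding by RefSeq. The Pdcd4 locus overlaps Bbip1 and Gm30990, and the Eif4a2 locus overlaps Rfc4, and reads of overlapping genes cannot be told apart without strand. RefSeq also annotates a pseudogene, Eif4a-ps4, and how reads shared with gene copies were counted is not given, so values of Eif4a1 and Eif4a2 are less certain.

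The start regions of Eif4e, Eif4a1 and Eif4g1 hold a short motif, the E-box CACGTG, a sequence bound by MYC and related factors. The RefSeq windows of 250 bases before to 50 bases after a start were searched for CACGTG, which reads the same on both strands. It was found in windows of 3 of the 7 members with a window, namely these 3, and not in those of Eif4a2, Eif4b, Eif4ebp2 and Pdcd4. Windows of Eif4g2 and Eif4ebp1 were not analysed here. The members with the motif are not the same as those that rose on stimulation: all 3 were called higher in RiboTag Input, while in SPEED Input Eif4a1 did not pass the test and Eif4b, which has no match, rose. Counted by window, 3 of the 9 windows of members hold it, and 7.15% of all 32851 windows do. The motif was picked with the changes of the members known, and a match is a stretch of letters, not evidence of a bound factor. The matches are shown with 12 bases on each side and the motif in capitals, 5′ to 3′ on the strand of the gene, as given by RefSeq for GRCm38.p6, with 2 in a second start window of Eif4e and 2 in that of Eif4g1.
Eif4e, chr3:138527028-138527057, plus strand: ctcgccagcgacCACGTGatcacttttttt
Eif4e, chr3:138527192-138527221, plus strand: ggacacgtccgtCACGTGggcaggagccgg
Eif4a1, chr11:69672595-69672624, minus strand: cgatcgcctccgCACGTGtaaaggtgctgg
Eif4g1, chr16:20672661-20672690, plus strand: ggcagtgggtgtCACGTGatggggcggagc
Eif4g1, chr16:20672730-20672759, plus strand: ctctgcgccggtCACGTGgggcgctggctg

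On stimulation, Input RNA of the cap-binding protein Eif4e, the scaffold Eif4g1 and the eIF4E-binding protein Eif4ebp1 rose in both assays, while that of the helicase Eif4a2, the eIF4E-binding protein Eif4ebp2 and the helicase inhibitor Pdcd4 fell in both. The helicase Eif4a1 rose in RiboTag and the cofactor Eif4b in SPEED. In RiboTag Input 4 of 9 members rose (Eif4e, Eif4a1, Eif4g1, Eif4ebp1) and 3 fell (Eif4a2, Eif4ebp2, Pdcd4) against IL7-rested cells, where 32.0% of all tested genes were called higher and 31.4% lower. In SPEED Input 4 rose (Eif4e, Eif4g1, Eif4b, Eif4ebp1) and the same 3 fell against untreated cells, where 27.9% of genes were called higher and 26.5% lower. With calls this common, the count of members called is not a result about them, and their direction and size are described. Their median log2 fold change was 0.20 in RiboTag and 0.24 in SPEED, beside -0.01 and 0.01 over all tested genes. Calls are edgeR quasi-likelihood tests at a Benjamini-Hochberg adjusted p of 0.05, and a ± beside a log2 fold change is its standard error.

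**Figure D1:**
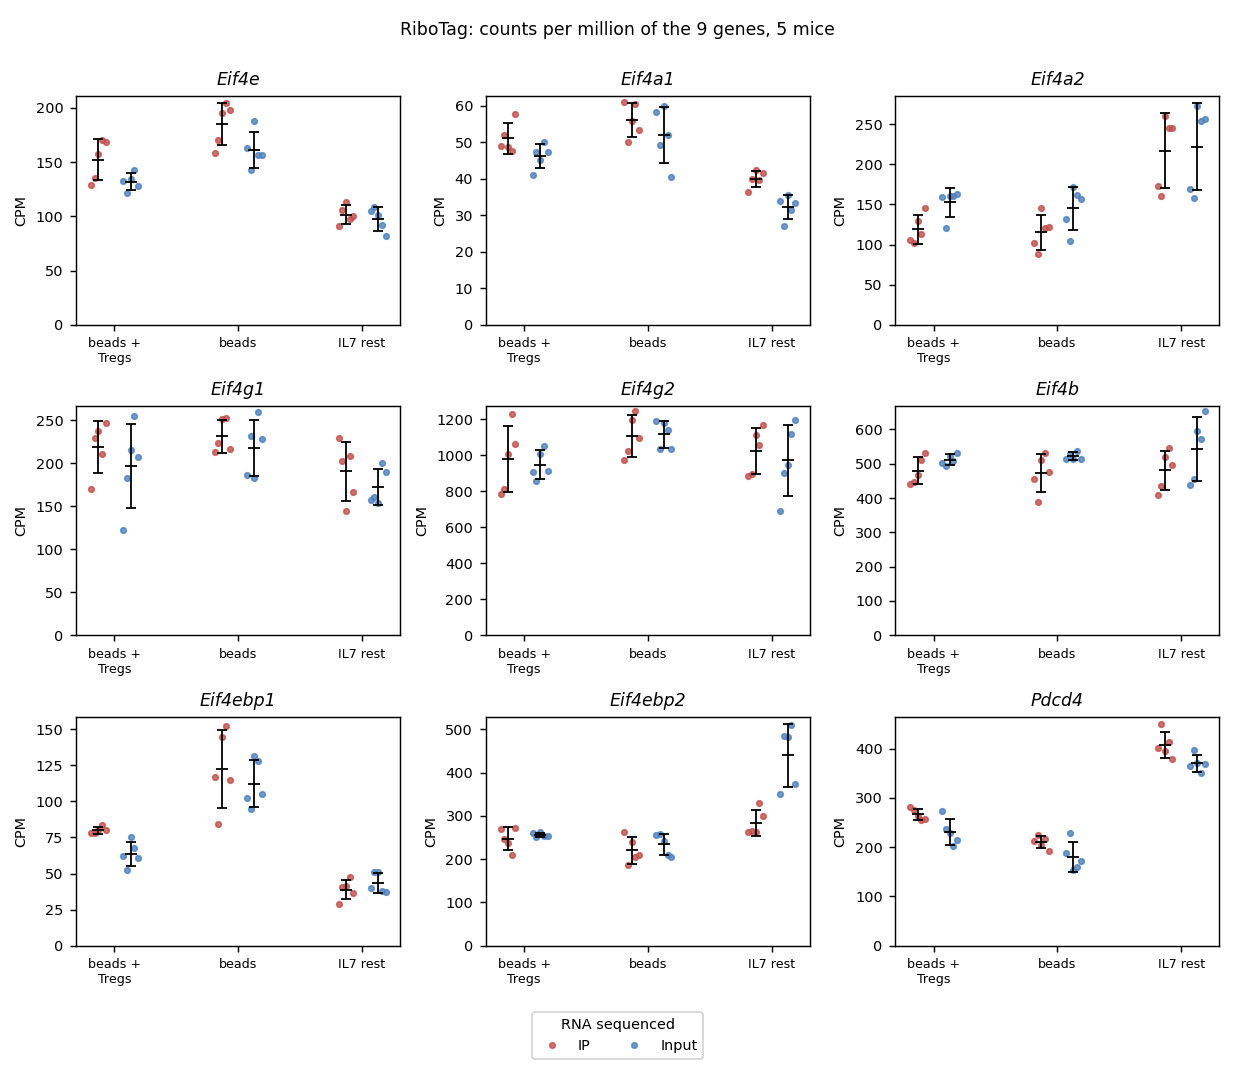
CPM (linear axis from 0) of each gene in RiboTag, with a point per mouse and black bars for the mean ± SD of 5 mice. Red is ribosome-bound RNA (IP) and blue is Input. Eif4ebp1 is highest with beads alone and Pdcd4 is highest in IL7 rest, and in both the cultures with Tregs average between those groups.

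Eif4e had 163, 143, 188, 156 and 157 CPM in stimulated RiboTag Input of mice 1 to 5, against 105, 109, 101, 92.1 and 81.7 CPM in rested cells. The groups did not overlap, and the log2 fold change was 0.72 ± 0.10 (adjusted p = 3.11e-07). In SPEED Input, Eif4e had 186, 150.5, 197 and 149 CPM in stimulated cells of mice 1 to 4, against 110.4, 96.4, 129 and 112 CPM in untreated cells, again without overlap (log2 fold change 0.61 ± 0.16, adjusted p = 0.00155).

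The helicase paralogs moved in opposite directions. Eif4a1 averaged 52.1 ± 7.74 CPM in stimulated and 32.3 ± 3.25 CPM in rested RiboTag Input (SD, n = 5 each), a log2 fold change of 0.68 ± 0.12 (adjusted p = 1.92e-05). Eif4a2 had 132, 105, 172, 161 and 156 CPM in stimulated RiboTag Input, against 169, 158, 273, 253 and 256 CPM in rested cells, and it was lower after stimulation in each of the 5 mice. Mice 1 and 2 were low in both groups, which makes the groups overlap; the log2 fold change was -0.61 ± 0.16 (adjusted p = 0.0017) over all mice and -0.65 (adjusted p = 5.30e-06) in mice 3 to 5 alone. In SPEED Input Eif4a2 averaged 127 ± 9.82 CPM in stimulated and 183 ± 12.2 CPM in untreated cells (SD, n = 4 each; log2 fold change -0.52, adjusted p = 2.04e-05). There Eif4a1 did not pass the test in Input (log2 fold change 0.24, adjusted p = 0.137) but rose in polysomal RNA (0.52, adjusted p = 0.00123). The log2 difference of Eif4a1 minus Eif4a2 moved by 1.26 in RiboTag Input, 1.38 in IP, 0.75 in SPEED Input and 1.33 in Pol, and in each the stimulated and unstimulated libraries did not overlap. These differences are given as descriptions, with no test.

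The scaffold Eif4g1 differed in size between the assays. It had 240.0, 218, 197 and 186 CPM in stimulated SPEED Input, against 121, 89.4, 99.2 and 106 CPM in untreated cells, a log2 fold change of 1.01 ± 0.15 (adjusted p = 3.13e-07) with no overlap. In RiboTag Input it had 186, 231, 183, 259 and 228 CPM in stimulated cells, against 157, 161, 154, 199.9 and 189.6 CPM in rested cells. It was higher in each of the 5 mice, but the groups overlapped, and the log2 fold change was 0.34 ± 0.14 (adjusted p = 0.0376). That call was lost without mouse 2, 4 or 5 (adjusted p 0.0665 to 0.128). In SPEED the starting cells were untreated and in RiboTag they were rested in IL7, and the difference between the assays was not tested. Eif4g2, its relative, averaged 1115 ± 76.6 CPM in stimulated and 970.1 ± 199 CPM in rested RiboTag Input and did not pass the test there (0.20, adjusted p = 0.138; 0.22, adjusted p = 0.0278 with mouse as a block), nor in SPEED Input (-0.03, adjusted p = 0.758). Eif4b rose in SPEED Input, with 522 ± 30.2 CPM in stimulated and 400.3 ± 23.1 CPM in untreated cells (0.38, adjusted p = 9.96e-05). In RiboTag Input its value was -0.06 (adjusted p = 0.618), and in mice 3 to 5 alone it was -0.19 (adjusted p = 0.0237).

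The eIF4E-binding proteins moved in opposite directions. Eif4ebp1 had 103, 94.7, 131, 128 and 105 CPM in stimulated RiboTag Input, against 39.9, 51.1, 50.9, 37.7 and 37.5 CPM in rested cells, and the groups were well apart (log2 fold change 1.37 ± 0.15, 2.58-fold, adjusted p = 2.13e-09). In SPEED Input it had 73.6, 65.2, 73.6 and 52.9 CPM in stimulated cells, against 25.3, 22.2, 23.9 and 17.1 CPM in untreated cells (1.58 ± 0.16, 2.99-fold, adjusted p = 1.21e-10). Eif4ebp2 had 255, 259, 241, 210.1 and 205 CPM in stimulated RiboTag Input, against 349.9, 485, 483, 509.6 and 374 CPM in rested cells, with no overlap (-0.91 ± 0.10, adjusted p = 5.37e-09). In SPEED Input it averaged 119 ± 8.05 CPM in stimulated and 191 ± 11.8 CPM in untreated cells (-0.69, adjusted p = 2.35e-06). The log2 difference of Eif4ebp2 minus Eif4ebp1 moved by -2.25 in RiboTag Input and by -2.24 in SPEED Input, nearly the same in both.

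Pdcd4 fell to a similar degree in both assays. It had 188, 229, 153, 160.4 and 172 CPM in stimulated RiboTag Input, against 364, 396, 371, 351 and 369 CPM in rested cells, a log2 fold change of -1.04 ± 0.09 (2.05-fold lower, adjusted p = 8.16e-12). In SPEED Input it had 187, 175, 215 and 215 CPM in stimulated cells, against 347, 338, 384 and 367 CPM in untreated cells (-0.86 ± 0.15, adjusted p = 4.69e-06). All stimulated libraries lay below all unstimulated ones in each assay.

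**Figure D2:**
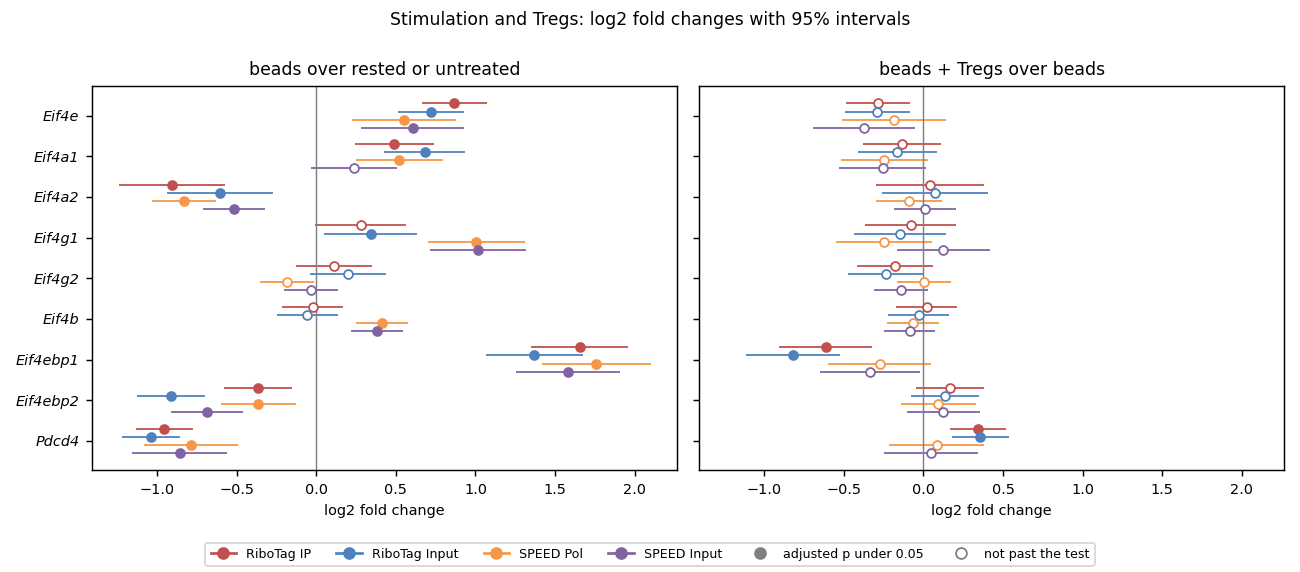
Fitted log2 fold change of each gene with its 95% interval, for beads over rested or untreated cells (left) and beads with Tregs over beads (right), in 4 kinds of RNA. Filled points have an adjusted p under 0.05: 7 of 9 genes do in RiboTag Input on the left, and on the right only Eif4ebp1 and Pdcd4 do, in RiboTag.

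Ribosome-bound and polysomal RNA followed Input. In RiboTag IP 3 members rose and 3 fell on stimulation (33.6% of all genes called higher and 31.1% lower), and in SPEED Pol 5 rose and 3 fell (28.5% called higher and 27.3% lower). Eif4e had a log2 fold change of 0.87 ± 0.10 in IP and 0.55 ± 0.16 in Pol. Eif4ebp1 had 1.65 ± 0.15 in IP and 1.76 ± 0.17 in Pol, Pdcd4 had -0.95 ± 0.09 in IP and -0.79 ± 0.15 in Pol, and all of these passed the test. Eif4g1 passed in Pol (1.01, adjusted p = 4.65e-07) and not in IP (0.28, adjusted p = 0.0856; 0.46, adjusted p = 0.00712 in mice 3 to 5 alone). Eif4g2 was lower in every mouse in Pol without passing the test (-0.18, adjusted p = 0.061), and it passed with mouse as a block (adjusted p = 0.0355).

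The ratio of IP over Input was past the test for a change on stimulation in 0 of 9 members by edgeR (0.0279% of all genes called), 1 at an unadjusted p under 0.05, and 0 by DESeq2. Eif4ebp2 came nearest, with a change of 0.55 ± 0.15 on the log2 scale that was positive in 5 of 5 mice and had an adjusted p of 0.502. In IL7-rested cells it was the 1 member of 9 past the test for IP over Input (3.54% of all genes called lower). It had 262, 266, 263, 330.0 and 299.8 CPM in rested IP, against 349.9, 485, 483, 509.6 and 374 CPM in rested Input, so the ribosome-bound RNA held less of it in every mouse (-0.63 ± 0.10, adjusted p = 0.000178). With Tregs the ratio of Eif4ebp2 was -0.05 ± 0.10 and in stimulated cells -0.08 ± 0.11. By edgeR or DESeq2, 0 of 9 members passed with Tregs (1.85% of all genes called by edgeR) or in stimulated cells (0.977% called). At an unadjusted p under 0.05 these were 4 members with Tregs and 1 in stimulated cells. With mouse as a block Eif4a2 passed in both, at -0.36 with Tregs (adjusted p = 0.0191) and -0.33 in stimulated cells (adjusted p = 0.0451), and it was lower in IP than in Input in 5 of 5 mice in each. The mouse block called 431 genes with Tregs and 250 in stimulated cells, against 199 and 105 in the main fit. With culture as a block, which pairs IP with its own Input, Pdcd4 also passed with Tregs (0.21, adjusted p = 0.0335) and in stimulated cells (0.23, adjusted p = 0.0338), and Eif4ebp1 passed with Tregs (0.34, adjusted p = 0.0463). The culture block called 1207 genes with Tregs and 849 in stimulated cells.

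Cultures with Tregs differed from stimulated cultures in 2 members, in RiboTag: Eif4ebp1 was lower and Pdcd4 was higher, each opposite to its change on stimulation. This was 1 higher and 1 lower of 9 in Input (2.76% of all genes called higher and 1.77% lower) and likewise in IP (3.45% called higher and 2.24% lower). Eif4ebp1 had 62.2, 52.2, 75.0, 67.7 and 60.9 CPM in Input with Tregs, against 103, 94.7, 131, 128 and 105 CPM in stimulated Input. Every culture with Tregs was below every stimulated culture and above every rested one in Input, and the log2 fold change was -0.82 ± 0.14 (1.77-fold lower, adjusted p = 0.000631). A larger size of change, in either direction, was found for 5.41% of the genes tested. In IP it had 78.0, 78.0, 80.3, 83.9 and 79.9 CPM with Tregs, against 117, 84.3, 145, 153 and 115 CPM in stimulated cells (-0.61 ± 0.14, adjusted p = 0.00842). The IP call was lost without mouse 3, 4 or 5 (adjusted p 0.0517 to 0.0699), while the groups did not overlap.

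Pdcd4 had 273, 238, 228, 202 and 215 CPM in RiboTag Input with Tregs, against 188, 229, 153, 160.4 and 172 CPM in stimulated Input. The groups overlapped through mouse 2, whose cultures differed least, and the value was higher with Tregs in 5 of 5 mice (0.36 ± 0.09, adjusted p = 0.0137). In IP it had 282, 275, 264, 255 and 256 CPM with Tregs, against 213, 226, 205, 216 and 191 CPM in stimulated cells, with no overlap (0.34 ± 0.09, adjusted p = 0.0175). The call in Input was lost without mouse 1, 3, 4 or 5 (adjusted p 0.0598 to 0.168), and that in IP without mouse 1, 3 or 5 (adjusted p 0.0609 to 0.131).

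Eif4e had 133, 121, 135, 142 and 128 CPM in RiboTag Input with Tregs, against 163, 143, 188, 156 and 157 CPM in stimulated cells. The groups did not overlap and it was lower in 5 of 5 mice, but it did not pass the test in Input (-0.29 ± 0.10, adjusted p = 0.0918) or in IP (-0.29 ± 0.10, adjusted p = 0.0803). It passed in IP with mouse as a block (adjusted p = 0.0449) and by DESeq2 (-0.30, adjusted p = 0.0369), and in Input in the fit of only the groups compared (-0.29, adjusted p = 0.0499). Those fits called more genes in all: 1077 and 927 in IP, against 612, and 948 in Input, against 487. In SPEED Input Eif4e had 145, 116, 129 and 137 CPM with Tregs, against 186, 150.5, 197 and 149 CPM in stimulated cells, without overlap and again short of the test (-0.37 ± 0.16, adjusted p = 0.28). The other members had log2 fold changes with Tregs between -0.24 and 0.13 in RiboTag Input.

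In SPEED, 0 of 9 members passed the test with Tregs in Input (0.587% of all genes called) or in Pol (0.282% called), by edgeR or DESeq2. At an unadjusted p under 0.05 edgeR had 2 members in Input, Eif4e and Eif4ebp1, and 0 in Pol. Eif4ebp1 had 58.3, 47.5, 52.9 and 51.2 CPM in Input with Tregs, against 73.6, 65.2, 73.6 and 52.9 CPM in stimulated cells. It was lower in 4 of 4 mice with overlapping groups, at -0.34 ± 0.15 (adjusted p = 0.312; 95% interval -0.65 to -0.02). Pdcd4 had 186, 206, 207 and 218 CPM in Input with Tregs, against 187, 175, 215 and 215 CPM in stimulated cells, with no common direction among mice (0.05, 95% interval -0.25 to 0.34). The intervals of Pdcd4 in the 2 assays overlap, and the difference between assays was not tested. The share of Treg RNA in these cocultures was not tested. The change of IP over Input with Tregs passed in 0 of 9 members (0% of all genes called), and likewise 0 of 9 for the change of Pol over SubPol (0% called). In both, 0 members passed at an unadjusted p under 0.05 by edgeR and 0 by DESeq2.

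Between the polysomal and subpolysomal fractions the members split into messages weighted to polysomes and messages weighted away from them. This weighting is relative to the other RNA of each fraction, since libraries are scaled to a common size. The log2 ratio of Pol over SubPol was past the test above 0 in 3 of 9 members and below 0 in 4 with Tregs (22.6% of all genes called higher in Pol and 21.6% lower). It was above in 3 and below in 5 in stimulated cells (23.6% called higher and 21.8% lower), and above in 1 and below in 4 in untreated cells (21.9% called higher and 17.8% lower). Pdcd4 stood highest. It had 202, 206, 242 and 322 CPM in stimulated Pol, against 106, 81.4, 83.4 and 95.1 CPM in stimulated SubPol, a log2 ratio of 1.40 ± 0.15 (2.65-fold, adjusted p = 1.27e-09). With Tregs it had 218, 224, 245 and 343 CPM in Pol, against 88.1, 119.6, 102 and 140.3 CPM in SubPol (2.30-fold, adjusted p = 2.84e-08). In untreated cells the log2 ratio was 0.48 ± 0.14 (adjusted p = 0.00718). With Input in place of SubPol, all 3 Pdcd4 calls were lost. The values were then 0.33 with Tregs (adjusted p = 0.157) and 0.22 in untreated cells (adjusted p = 0.363). Eif4a1 and Eif4g1 were the other members above 0 in stimulated cells and with Tregs. Over Input, Eif4a1 had 0.37 (adjusted p = 0.0806) and 0.38 (adjusted p = 0.065). Eif4g1 had -0.20 (adjusted p = 0.449) and -0.57 (adjusted p = 0.0107).

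Both eIF4E-binding proteins lay on the other side. Eif4ebp1 had 44.8, 61.9, 54.5 and 50.4 CPM in stimulated Pol, against 89.6, 94.6, 102 and 101 CPM in stimulated SubPol (-0.87 ± 0.16, adjusted p = 1.38e-05). Its log2 ratio was -0.94 with Tregs and -1.02 in untreated cells. Eif4ebp2 had log2 ratios of -0.85 with Tregs, -0.73 in stimulated cells and -0.97 in untreated cells. The helicase Eif4a2 had -0.92 with Tregs, -0.90 in stimulated cells and -0.45 in untreated cells, and for these 3 genes all 9 values passed the test. With Input in place of SubPol the values were smaller and the call was lost in 5 of the 9. Over all genes, calls fell from 5495 to 1184 with Tregs, 5642 to 1035 in stimulated cells and 4929 to 1151 in untreated cells. Eif4ebp1 then had -0.26 with Tregs (adjusted p = 0.319), -0.32 in stimulated cells (adjusted p = 0.211) and -0.50 in untreated cells (adjusted p = 0.0531). Eif4a2 lost its call in untreated cells (-0.11, adjusted p = 0.501) and Eif4ebp2 in stimulated cells (-0.33, adjusted p = 0.0691). The cap-binding protein Eif4e lay near 0 in stimulated cells (-0.01, 95% interval -0.33 to 0.32), and its ratio passed the test in 0 of the 4 conditions. With culture as a block, which pairs Pol with SubPol, it passed with Tregs (0.23, adjusted p = 0.0373). In SubPol 2 members rose and 3 fell on stimulation (27.5% of all genes called higher and 24.5% lower), a comparison added after seeing the data. Of the risers, Eif4e (0.45, adjusted p = 0.0181) lost its call without mouse 1 or 2 (adjusted p 0.129 and 0.114). Eif4ebp1 rose by a similar log2 fold change in both fractions, 1.76 in Pol and 1.61 in SubPol (adjusted p = 7.80e-11 in SubPol).

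**Figure D3:**
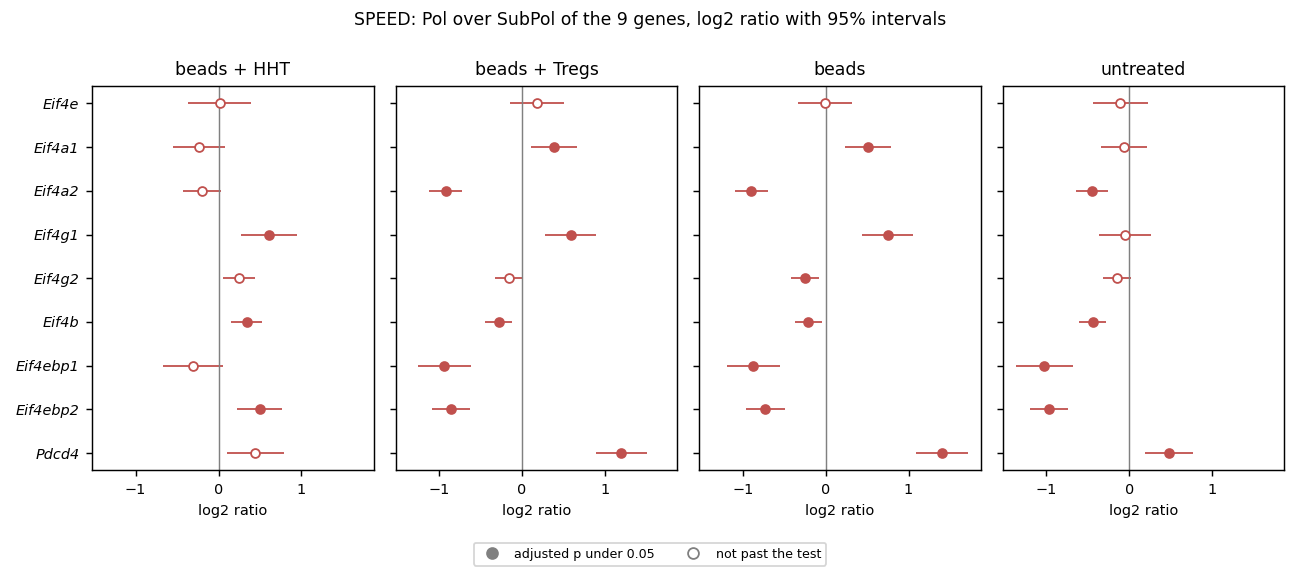
Fitted log2 ratio of Pol over SubPol for each gene with its 95% interval, in the 4 SPEED conditions, with filled points at an adjusted p under 0.05. With beads and Tregs and with beads alone, Pdcd4 lies farthest right (1.40 with beads) and Eif4a2, Eif4ebp1 and Eif4ebp2 lie left, and with HHT all 9 values lie between -0.31 and 0.61.

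The ratio of Pol over SubPol changed on stimulation in 2 of 9 members, both upward (1.56% of all genes called higher). Pdcd4 shifted by 0.92 ± 0.21 (adjusted p = 0.0106), positive in 4 of 4 mice. It was lower after stimulation in both fractions, by -0.79 in Pol and -1.71 in SubPol on the log2 scale. Eif4g1 shifted by 0.80 ± 0.22 (adjusted p = 0.0347), with 219, 158, 209.9 and 138 CPM in stimulated Pol and 121, 99.1, 127 and 85.6 CPM in stimulated SubPol. In untreated cells it had 93.1, 90.1, 94.6 and 86.3 CPM in Pol and 120.2, 77.2, 100.2 and 78.6 CPM in SubPol, which did not differ beyond their spread (ratio -0.05, adjusted p = 0.827). Eif4a2 shifted by -0.45 ± 0.14 (adjusted p = 0.0684; 0.0360 with mouse as a block) and Eif4a1 by 0.57 ± 0.19 (adjusted p = 0.093). The mouse block called 556 genes for this change, against 323 in the main fit.

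These shifts rest on SubPol as the comparison, and so did nearly all calls of this change. Over all genes, 323 were called with SubPol and 1 with Input. With Input in its place Pdcd4 shifted by 0.07 (adjusted p = 1.00) and Eif4g1 by -0.01, and Pol over Input in stimulated cells was 0.29 for Pdcd4 (adjusted p = 0.245) and -0.20 for Eif4g1. Both shifts were also lost without single mice, Pdcd4 without mouse 2 or 3 (adjusted p 0.061 and 0.127) and Eif4g1 without mouse 1, 2 or 3 (adjusted p 0.107 to 0.216). In stimulated cells Eif4g1 averaged 210 CPM in Input, above both Pol (181 CPM) and SubPol (108 CPM), and why was not tested.

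**Figure D4:**
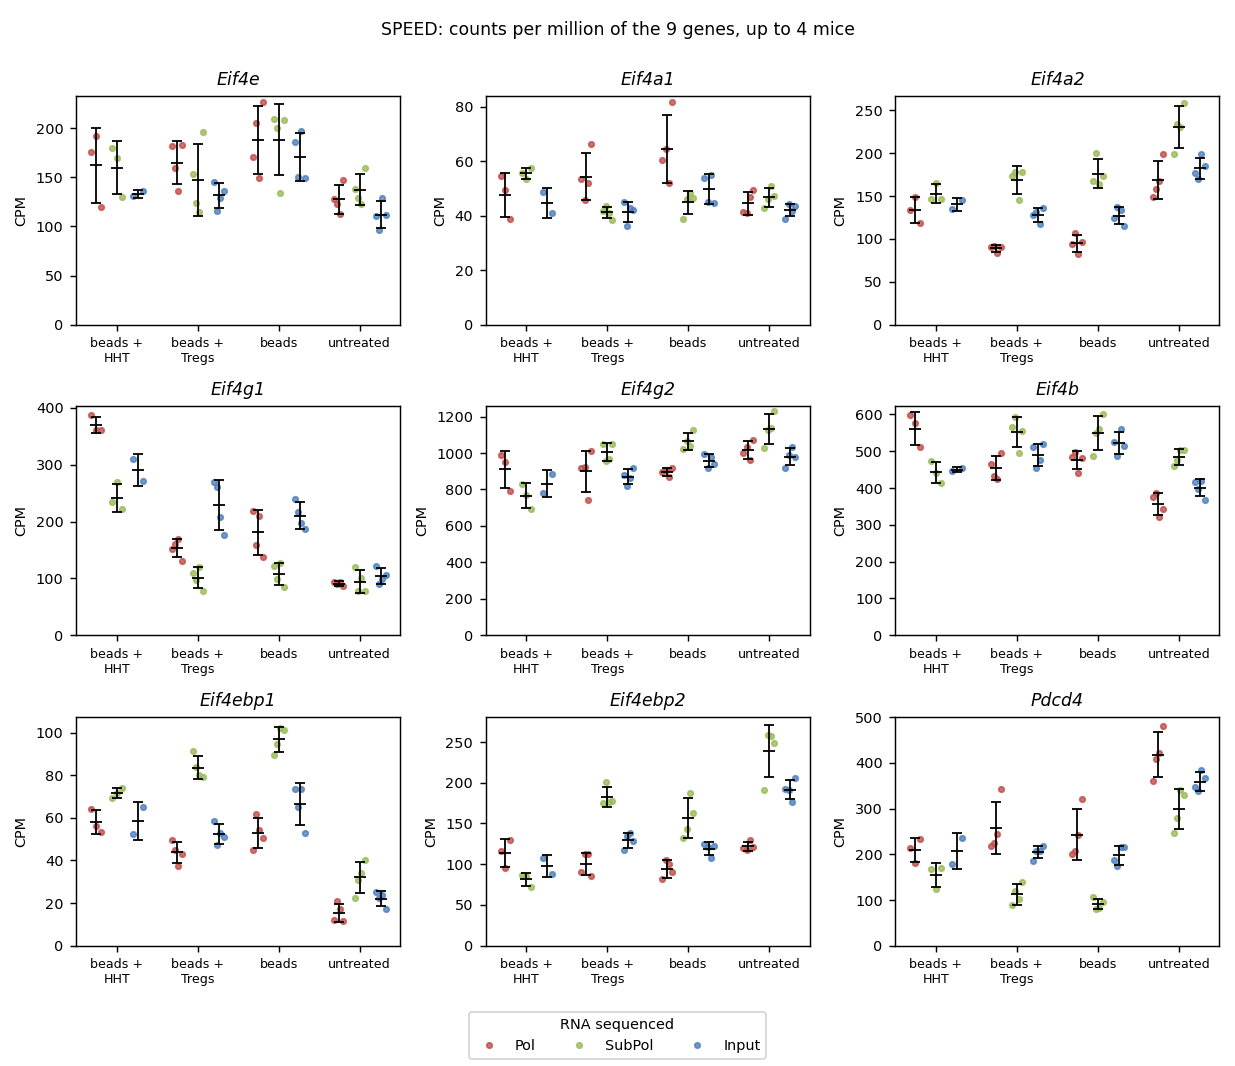
CPM (linear axis from 0) of each gene in SPEED, with a point per mouse and black bars for the mean ± SD of the 2 to 4 mice of a group. Red is polysomal RNA, green is subpolysomal RNA and blue is Input. Eif4g1 is highest with HHT in all 3 kinds of RNA, and Pdcd4 in SubPol is lowest with beads alone.

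HHT, added to stimulated cells 10 min before harvest, changed the balance of most members between the fractions, relative to other RNA. In Input 0 of 9 passed the test by edgeR or DESeq2 (edgeR called 0.105% of all genes), with 2 HHT libraries fitted and 3 members at an unadjusted p under 0.05. The ratio of Pol over SubPol rose in 4 of 9 members and fell in 2 (10.3% of all genes called higher and 12.7% lower). It was higher with HHT for Eif4ebp2 (1.22 ± 0.18, adjusted p = 3.47e-06), Eif4a2 (0.70 ± 0.15, adjusted p = 0.000673), Eif4b (0.55 ± 0.12, adjusted p = 0.000861) and Eif4g2 (0.50 ± 0.13, adjusted p = 0.00388). It was lower for Pdcd4 (-0.96 ± 0.23, adjusted p = 0.00197) and Eif4a1 (-0.74 ± 0.21, adjusted p = 0.00746). Each of the 6 moved the same way in 3 of 3 mice. The call was lost for Eif4g2 without mouse 2 (0.45, adjusted p = 0.0965) and for Eif4a1 with no filter on low counts (-0.80, adjusted p = 0.052). With HHT, 3 members (Eif4g1, Eif4b and Eif4ebp2) had a ratio past the test, all above 0 (4.51% of all genes called higher). All 3 calls were lost when single mice were left out. The Eif4g1 ratio of 0.61 lost its call without mouse 1, 2 or 3 (adjusted p 0.0754 to 0.281) and with no filter (adjusted p = 0.0527). The Eif4b ratio lost its call without mouse 1, 2 or 3 (adjusted p 0.137 to 0.201), with no filter (adjusted p = 0.0981) and in the fit of only the groups compared (adjusted p = 0.160). The Eif4ebp2 ratio of 0.50 lost its call without mouse 1 (adjusted p = 0.0891) and without mouse 3 (0.27, adjusted p = 0.521), with no filter (adjusted p = 0.0899) and with only the groups compared (adjusted p = 0.0784). Pdcd4 had 0.44 with HHT (adjusted p = 0.116) and passed with mouse as a block (adjusted p = 0.0262) and with culture as a block (0.42, adjusted p = 0.0268). The culture block called 1304 genes there, against 839 in the main fit.

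The log2 ratios of Pol over SubPol of Eif4b and Eif4g2 were 0.34 and 0.25 with HHT, against -0.21 and -0.25 in stimulated cells. In stimulated cells both passed the test, and both calls were lost with no filter, with only the groups compared and without single mice (adjusted p 0.0536 to 0.189). Eif4b had 598, 577 and 510.2 CPM in Pol with HHT, against 472, 442 and 415 CPM in SubPol with HHT. In stimulated cells it had 485, 497, 439.8 and 480.4 CPM in Pol, against 488, 548, 560.2 and 602 CPM in SubPol. So the CPM of Eif4b was higher in Pol than in SubPol in each of the 3 mice with HHT and lower in each of the 4 mice without it. Libraries are scaled to a common size, so this is relative to other RNA and gives no share of Eif4b RNA on polysomes. Eif4g2 in SubPol had 832, 767 and 695 CPM with HHT, against 1020.1, 1068, 1037 and 1129 CPM in stimulated cells, with no overlap (-0.48 ± 0.09, adjusted p = 0.000101), and in Pol its value was 0.02 (adjusted p = 0.954).

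**Figure D5:**
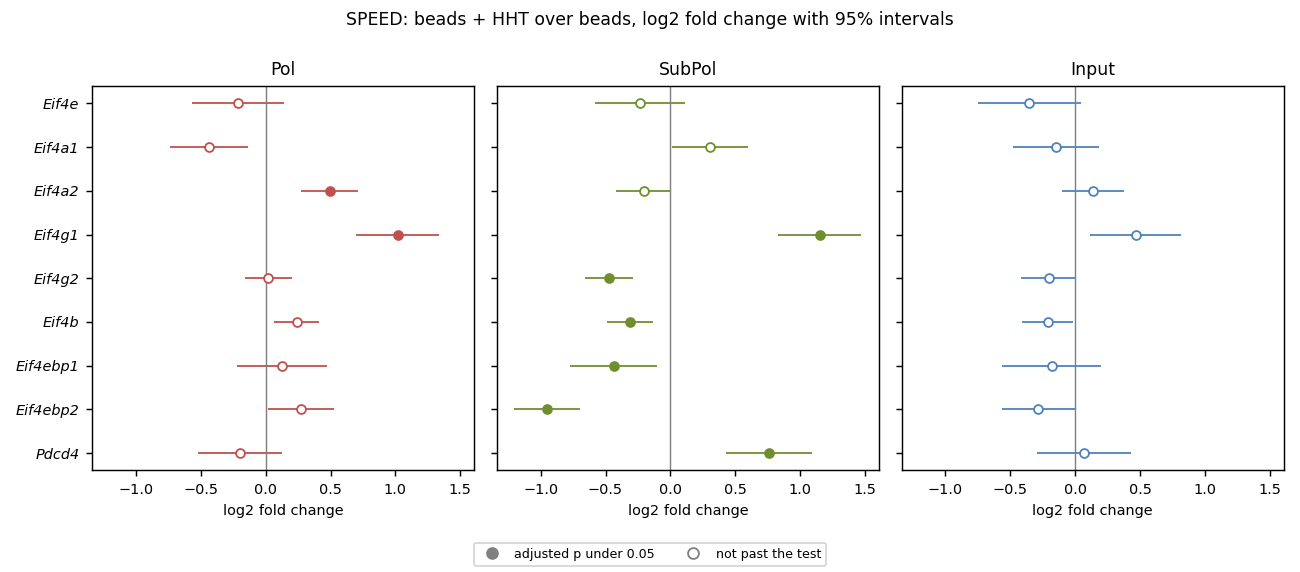
Fitted log2 fold change of each gene with beads and HHT over beads alone, with its 95% interval, in Pol, SubPol and Input. Filled points have an adjusted p under 0.05. Eif4g1 is the farthest right in each panel (1.02, 1.15 and 0.47), and its Input value did not pass the test.

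Tested singly, a comparison added after seeing the data, Pol rose in 2 members (2.83% of all genes called higher), while in SubPol 2 rose and 4 fell (15.1% called higher and 14.2% lower). Of the 4 that fell in SubPol, Eif4ebp1 (-0.44, adjusted p = 0.0431) lost its call without any 1 of mice 1 to 4 (adjusted p 0.0783 to 0.258), and Eif4b (-0.31, adjusted p = 0.00546) lost it without mouse 2 or 3 (adjusted p 0.0828 and 0.166). Eif4ebp2 had 86.2, 86.1 and 71.7 CPM in SubPol with HHT, against 132, 144, 188 and 163 CPM in stimulated SubPol (-0.95 ± 0.13, adjusted p = 2.50e-07). Its Pol levels of 116, 95.5 and 129.7 CPM with HHT, against 81.3, 106, 101 and 90.5 CPM in stimulated cells, overlapped (0.27, adjusted p = 0.232). Pdcd4 in SubPol had 169, 125 and 171 CPM with HHT, against 106, 81.4, 83.4 and 95.1 CPM in stimulated cells (0.76 ± 0.16, adjusted p = 0.000436), and in Pol its value was -0.20 (adjusted p = 0.582). For both inhibitors SubPol passed the test and Pol did not. Eif4a2 passed in Pol, with 134, 149 and 119 CPM with HHT, against 94.6, 107, 82.5 and 96.4 CPM in stimulated cells (0.49 ± 0.11, adjusted p = 0.00362). Without mouse 1 the Eif4a2 value was 0.48 and no longer passed (adjusted p = 0.0823).

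Eif4g1 was higher with HHT in both fractions. The change of its ratio did not pass the test (-0.14, adjusted p = 0.728) and was below 0 in 3 of 3 mice. It had 387, 362 and 361 CPM in Pol with HHT, against 219, 158, 209.9 and 138 CPM in stimulated Pol, a log2 fold change of 1.02 ± 0.16 (adjusted p = 3.28e-05). In SubPol it had 234, 269.7 and 222 CPM with HHT, against 121, 99.1, 127 and 85.6 CPM in stimulated SubPol (1.15 ± 0.16, adjusted p = 5.09e-07). No HHT library overlapped a stimulated one in either fraction. In Input it had 311 and 271 CPM with HHT, against 240.0, 218, 197 and 186 CPM in stimulated cells, which did not pass the test (0.47 ± 0.17, adjusted p = 0.519). For Eif4e the change of Pol over SubPol with HHT lay near 0 with a wide interval (0.02, 95% interval -0.48 to 0.51). In Input Eif4e averaged 133 CPM with HHT and 171 CPM in stimulated cells. There it was lower in 2 of 2 mice without overlap of the groups, and it did not pass the test. With Input in place of SubPol, 0 of 9 members passed for the change with HHT. Over all genes, 44 passed with Input and 2860 with SubPol.

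Across the 18 groups of both assays, with each assay centred on its own mean, Eif4ebp1 and Pdcd4 ran opposite to each other (Pearson r = -0.93 over 18 group means) and Eif4e ran with Eif4a1 (r = 0.82). These are descriptions, and groups of 1 assay share mice and cultures. Among 6718 well measured genes, the gene most like Eif4ebp1 was ENSMUSG00000057497 (r = 0.985) and the gene most like Pdcd4 was ENSMUSG00000015837 (r = 0.983). The identifiers could not be matched to symbols here. The log2 difference of Eif4ebp2 minus Eif4ebp1 was 2.01 ± 0.17 with Tregs, 1.06 ± 0.31 in stimulated and 3.31 ± 0.24 in rested RiboTag Input (SD, n = 5 each), with no overlap between any of these groups. In SPEED Input it was 1.30 ± 0.21 with Tregs, 0.84 ± 0.28 in stimulated and 3.09 ± 0.31 in untreated cells (SD, n = 4 each), where Tregs and stimulated cells overlapped.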

How the data were processed

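The measurements are raw counts that the authors deposited, a table for each assay with whole numbers of reads per Ensembl gene. Libraries were made with SMART-Seq v4 and NexteraXT, per the labels' protocols, a kit that does not mark strand. The submitters' processing notes name GRCm38, SAMtools 1.2, HTSeq 0.4.1, FastQC 0.11.3 and Picard 1.134, with no aligner and no word on reads with several matches. Of the RiboTag columns, 16 fit no sample and stayed out. HHT Input of mouse 1 was listed under the same title for 2 libraries, of which the later was left out, which leaves 30 RiboTag and 44 SPEED libraries. By library number, the one left out follows the other Input libraries of mouse 2. That mouse has Pol and SubPol with HHT but no HHT Input by the labels. Whether the title is in error was not tested.

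From the counts, edgeR 4.0.16 in R 4.3.3 was run per assay over all groups: filterByExpr (minimum count 10, minimum total 15), TMM scaling, a robust quasi-likelihood fit, and two-sided tests adjusted over all 10751 (RiboTag) or 12428 (SPEED) genes at 0.05. Ratios of fractions and their changes were contrasts of the same fit. Log2 CPM used a prior count of 2. Because libraries are scaled to a common size, changes in a cell's RNA content or in its polysome share do not show. The fits were also run on simulated counts drawn with no effect of mouse or culture, which cannot show how pairing bears on them. The outcome is not given here.

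Libraries with the same number within an assay are pairs, since the labels give them 1 mouse. Their deviations from group means had a mean correlation of 0.21 (RiboTag, -0.09 to 0.58) and 0.09 (SPEED, -0.35 to 0.59), and mouse was a block in an alternative. Replicates are different mice; chi-square per degree of freedom was 1.81 or more in all 123 pairs of libraries of a group, so none was counted as a copy. Alternatives were DESeq2 1.42.0, RLE scaling, no filter, mouse or culture as a block, only the groups compared, each mouse left out, RiboTag mice 3 to 5 alone, the untreated SubPol library of mouse 3 left out, Pol over Input, and the repeated library added in. Named genes are all 9 members and, for likeness, the genes with the highest r with Eif4e, Eif4a1, Eif4ebp1 and Pdcd4, of which 2 are printed. The members and lists were chosen with earlier results of these data known. Sequences and positions are from RefSeq, GRCm38.p6.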

Additional observations from a re-analysis of the deposited data

Results flagged for a closer look

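In 6 of 135 sets of values, a gene in a group of 4 or 5 mice, 1 mouse stood apart from the others by Dixon's test, where chance gives about 1 in 20. Eif4a2 had 120.5 CPM in RiboTag Input with Tregs of mouse 2, beside 159.6 to 162 CPM in the other mice. In SPEED, mouse 3 was low for Eif4a2 with Tregs, at 83.4 CPM in Pol (others 90.4 to 91.3) and 145 CPM in SubPol (others 174 to 178), and for Eif4e in stimulated SubPol, at 134 CPM (others 201 to 209). Eif4ebp2 had 191 CPM in untreated SubPol of mouse 1 (others 248 to 259) and 201 CPM in SubPol with Tregs of mouse 2 (others 175 to 177).

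The change of Pol over SubPol on stimulation, a tested difference between conditions, was past the test for Pdcd4 (0.92) and Eif4g1 (0.80). That with HHT was past the test for Eif4ebp2 (1.22), Eif4a2 (0.70), Eif4b (0.55), Eif4g2 (0.50), Pdcd4 (-0.96) and Eif4a1 (-0.74).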

How the results depend on the processing

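Of 77 member results past the test, 41 kept their direction and call under every alternative run. Over all member results, 2294 of 2421 alternative values kept the call or its absence. Values called in neither fit were counted here even where their sign differed. Of the rest, 89 lost the call, 35 gained it and 3 reversed direction with a call in either fit. The 3 reversals were Eif4g1 with Input in place of SubPol: -0.0096 for the change on stimulation, -0.20 in stimulated cells and -0.57 with Tregs (adjusted p = 0.0107). With that denominator the members called were 0 for the change on stimulation, 0 for the change with HHT, 1 for the ratio in untreated cells, 1 in stimulated cells, 3 in cells with Tregs and 0 in cells with HHT. Over all genes the calls fell too, from 323 to 1 for the change on stimulation and from 2860 to 44 for that with HHT. The ratio to Input had 1151 calls in untreated cells (4929 with SubPol) and 1035 in stimulated cells (5642). It had 1184 with Tregs (5495) and 5 with HHT (839). With mouse as a block (replicate block), the pairing of samples gave 1 member for IP over Input in stimulated cells and 1 with Tregs, and with culture as a block 2 and 3. Over all genes the mouse block called 250 and 431 and the culture block 849 and 1207, against 105 and 199 in the main fit. With no filter, 1 member was called for the change of Pol over SubPol on stimulation and 0 for Pol over SubPol with HHT, and in fits of only the groups compared 1 and 1. Leaving out each mouse gave 1 to 2 members for Tregs in RiboTag Input, 0 to 2 in IP, 0 to 2 for the change of Pol over SubPol on stimulation and 0 to 3 for Pol over SubPol with HHT. The mouse block moved no other count of members called by over 1.5 times. The causes were not tested. Counts were lowest for Eif4ebp1 (32 reads or more) and Eif4a1 (59 reads or more), and whether this bears on their calls was not tested. HHT Input rests on 2 mice by the labels.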
